A study of Mus musculus with 6 samples.

Results

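The insulin-like growth factor (IGF) genes examined here are IGF1, its receptor and 6 IGF binding proteins, as measured by RNA-seq in mouse cerebellar granule neuron (CGN) cultures given GSK-126 or its DMSO vehicle. The members were chosen by symbol, with earlier results of these data known: Igf1, Igf1r, Igfbp2, Igfbp3, Igfbp4, Igfbp5, Igfbp6 and Igfbp7. All 8 were found among the 55341 gene symbols of the count tables, and all 8 passed the filter on low counts, which left 16729 genes for testing. Both groups were CGNs grown from granule neuron precursors of CD1-IGS mice aged P6 to P8, purified on a Percoll gradient and exposed to cytosine arabinoside, which blocks cell division, at day in vitro (DIV) 2. GSK-126 is a small molecule that inhibits the histone methyltransferase EZH2. The study describes giving it at DIV3 and collecting RNA at DIV5. The DIV3 in the library titles was read as the day on which GSK-126 or DMSO was given. Each group had 3 libraries, numbered 1 to 3. A replicate was a culture of pooled litters, so no library represents a single animal, and no dose is stated for the addition at DIV3. The labels name the source as cerebellum, whereas the study describes cultured cells.

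IGF1 is a secreted growth factor that signals through IGF1R, a receptor tyrosine kinase, to the PI3K-AKT and MAP kinase pathways, and in the developing cerebellum it is known to support the proliferation of granule neuron precursors and the survival of granule neurons. The IGF binding proteins are secreted proteins that hold IGFs outside the cell, where they can withhold the ligand from the receptor, lengthen its life or deliver it, and proteases release the ligand by cutting them. IGFBP7 binds IGFs only weakly and is often grouped as a related protein of the extracellular matrix and vessel wall.

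The promoters of the members differed widely in CpG content, and short stretches of 5 of them are shown. CpG-rich promoters are the kind that EZH2-containing complexes are known to occupy. Neither EZH2 nor histone marks at these promoters were examined here, and a link of CpG content to the levels was not tested. The sequences are from RefSeq on GRCm38.p6, and each promoter covers 300 bases, 250 before the start site and 50 from it on. Among 32851 promoters of that length the median number of CpG dinucleotides was 7 and the upper quartile was 20. The 30 bases that end 11 bases before the start are printed 5′ to 3′ on the strand of the gene for Igfbp7 (chr5:77408056-77408085, minus strand) and Igfbp3 (chr11:7213934-7213963, minus strand), the members with separate groups below. Those of Igfbp4 (chr11:99041204-99041233, plus strand), Igf1r (chr7:67952217-67952246, plus strand) and the first of the Igfbp2 starts (chr1:72824440-72824469, plus strand) are printed because each holds 1 of the motifs searched, which is in capitals.
Igfbp7: ggggcagcggctttaagggttggcctccgg
Igfbp3: ccccggcttctatatatcggcctgcgcgcc
Igfbp4: ccagggggccggTATAAAgtcccgggagcc
Igf1r: cgggggccgacgcgGGGCGGcgggagcgct
Igfbp2: gggGGGCGGggagaagcaggctttttagga

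Over the whole 300 bases, the promoter of Igf1r held 48 CpG, that of Igfbp3 held 37, that of Igfbp7 held 33 and that of Igfbp4 held 27, all above the upper quartile. Igfbp2 has 2 starts in RefSeq, with 18 and 14 CpG. Igfbp5 with 10, Igfbp6 with 8 and Igf1 with 6 CpG lay near the median. The RefSeq start of Igf1, at 87861111, lies inside the gene span given below, which begins at 87858265. That of Igf1r, at 67952257, lies before its span, which begins at 67952827. The CpG counts hold for these RefSeq starts only. The motif GGGCGG, searched on both strands, occurred 4 times in the promoter of Igfbp7, 3 times in the first promoter of Igfbp2, 2 times in that of Igf1r, in no other promoter of the members, and in 35.7% of all promoters. TATAAA, also on both strands, was in the promoters of Igfbp4 and Igfbp6 and in 13.6% of all. CACGTG, which reads the same on both strands, was in 1 promoter of Igfbp2 and in 7.15% of all. Igfbp3 and Igfbp7 were thus among the CpG-rich members, as were Igf1r and Igfbp4, whose levels did not pass the tests below.

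The libraries held between 7407189 and 13092763 counts on genes, and lines that name no gene took 58.7% to 60.7% of the reads listed. Reads that the counting assigned to no exon took 45.3% to 46.6% on their own, and why was not tested. No library was a copy of another. Libraries with the same replicate number deviated together from their group means, and so the numbers pair the libraries. Ezh2, the gene of the inhibited enzyme, was read at 43.7, 36.1 and 29.8 depth-scaled counts (CPM) with DMSO in replicates 1 to 3, and at 41.8, 32.7 and 26.2 CPM with GSK-126. Its RNA does not check the treatment, since GSK-126 acts on the protein. The 10 granule neuron markers were all detected, with a summed level of 3814 to 6256 CPM in DMSO libraries, but markers of fibroblasts (9045 to 12870 CPM), astroglia (2178 to 6941 CPM) and microglia (399 to 816.6 CPM) were present too. The endothelial list summed to 74.5 to 93.5 CPM with DMSO, and its markers Cldn5 and Ly6c1 stayed under 1 CPM in every library.

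To compare levels between genes, counts were divided by exon length as well as depth (RPKM). Igfbp2 had the highest level of the 8, between 179 and 299 RPKM over the 6 libraries, followed by Igfbp7 at 101 to 184 RPKM. Igfbp2 exceeded Igfbp7 in 6 of 6 libraries, and Igfbp7 exceeded Igfbp5 in 6 of 6. Igfbp5 at 28.5 to 59.2 RPKM and Igfbp4 at 18.4 to 52.1 RPKM could not be ordered, since Igfbp5 was the higher of the pair in 2 of 6 libraries. Igfbp3 (9.88 to 19.3 RPKM) was below Igfbp4 in 5 of 6 libraries and above Igfbp6 (6.2 to 13.2 RPKM) in 5 of 6. Igfbp6 exceeded Igf1 in 6 of 6 libraries although their ranges overlapped, and Igf1 at 5.12 to 12.4 RPKM exceeded Igf1r at 6.12 to 8.96 RPKM in 4 of 6, which sets no order between ligand and receptor. Igfbp6 exceeded Igf1r in 5 of 6 libraries.

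**Figure D1:**
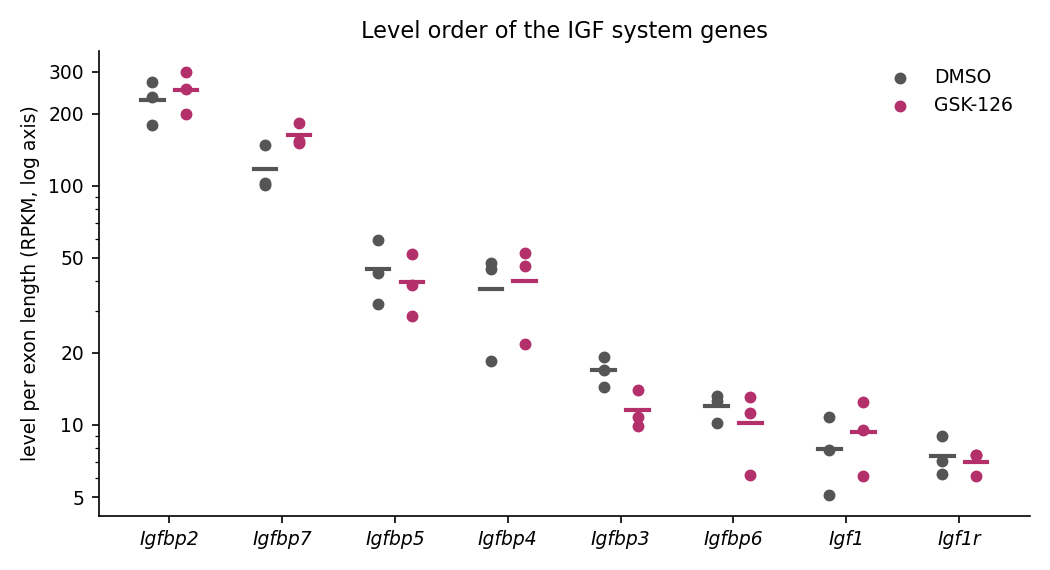
Level of each IGF system gene in RPKM on a log axis, with 1 point per library and a bar at the mean of each group of 3. Igfbp2 and Igfbp7 lie above 100 RPKM in every library, and Igf1 and Igf1r lie between 5.12 and 12.4 RPKM.

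All further levels are CPM scaled by TMM factors, which compare a gene between libraries but not with other genes. The ligand Igf1 (ENSMUSG00000020053.18, chromosome 10, 87858265 to 87937042, plus strand) had 78.21, 50.72 and 106.9 CPM with DMSO and 94.82, 60.53 and 123.3 CPM with GSK-126 in replicates 1, 2 and 3. The groups overlapped over most of their range, with replicate 2 low and replicate 3 high in each, and the GSK-126 library was the higher of every pair. The means were 78.6 ± 28.1 CPM (SD, n = 3) and 92.9 ± 31.4 CPM (SD, n = 3). The log2 fold change was 0.24 with a standard error of 0.32 (edgeR quasi-likelihood test, Benjamini-Hochberg adjusted p = 0.961). With the replicate number as a block it was 0.25 with a standard error of 0.08 (edgeR, Benjamini-Hochberg adjusted p = 0.0779). The block fit placed Igf1 past the threshold of 0.05 when libraries were scaled by the upper quartile (edgeR, adjusted p = 0.0403) or by total counts (edgeR, adjusted p = 0.043), alternatives chosen after seeing the data in which 4.35% and 4.27% of all genes were called higher. The 3 log2 ratios within pairs were 0.28, 0.26 and 0.21, an SD of 0.04, so the difference was small and even while the replicates themselves differed 2.07 times between the lowest and the highest.

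The receptor Igf1r (ENSMUSG00000005533.10, chromosome 7, 67952827 to 68233668, plus strand) had 105.2, 150.4 and 118.7 CPM with DMSO against 102.8, 125.8 and 125.7 CPM with GSK-126. The groups overlapped, and the pairs did not share a direction, with log2 ratios of -0.03, -0.26 and 0.08. The log2 fold change was -0.08 with a standard error of 0.16 (edgeR, Benjamini-Hochberg adjusted p = 0.962). In the block fit the 95% interval ran from -0.24 to 0.10, which leaves room for differences of that size in either direction.

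Igfbp7 was the member with the clearest higher level. Igfbp7 (ENSMUSG00000036256.13, chromosome 5, 77349240 to 77408041, minus strand) had 124.5, 121.9 and 179.2 CPM with DMSO and 186.1, 181.8 and 221.9 CPM with GSK-126. Every GSK-126 library lay above every DMSO library, though only by a small margin between DMSO replicate 3 and GSK-126 replicate 2. The mean went from 141.8 ± 32.4 CPM (SD, n = 3) to 196.6 ± 22 CPM (SD, n = 3), 38.6% higher, and the GSK-126 library was 1.5, 1.49 and 1.24 times its DMSO partner in pairs 1, 2 and 3. Without a block, the log2 fold change of 0.47 (standard error 0.18) did not pass (edgeR quasi-likelihood test, Benjamini-Hochberg adjusted p = 0.953). With the replicate block, Igfbp7 rose by 0.49 on the log2 scale (standard error 0.08, 95% interval 0.32 to 0.65, edgeR, Benjamini-Hochberg adjusted p = 0.000411), and it passed with each pair left out. A two-sided exact permutation test of the difference in mean log2 CPM gave p = 0.1. No smaller value can be reached with 3 libraries in each group.

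In Igfbp7, 85 bp of exon overlap Polr2b, a subunit gene of RNA polymerase II, on the opposite strand, and whether the counting used strand is not stated. Polr2b itself averaged 121.5 ± 1.7 CPM (SD, n = 3) in DMSO libraries against 121.6 ± 7.65 CPM (SD, n = 3) in GSK-126 libraries, a log2 fold change of 0 in edgeR. The exons of the other 7 members overlap no other gene.

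Igfbp3, the main carrier of IGFs in blood, was the member with the clearest lower level. Igfbp3 (ENSMUSG00000020427.11, chromosome 11, 7206086 to 7213923, minus strand) had 45.22, 60.32 and 53.36 CPM with DMSO and 30.92, 33.93 and 43.81 CPM with GSK-126. The groups did not overlap, but GSK-126 replicate 3 lay close under DMSO replicate 1. The DMSO mean was 53.0 ± 7.56 CPM (SD, n = 3) and the GSK-126 mean 36.2 ± 6.74 CPM (SD, n = 3), a ratio of 0.684. Without a block the log2 fold change of -0.55 (standard error 0.18) did not pass (edgeR, Benjamini-Hochberg adjusted p = 0.953). With the block, Igfbp3 fell by 0.55 on the log2 scale (standard error 0.12, 95% interval -0.80 to -0.31, edgeR, Benjamini-Hochberg adjusted p = 0.00378), and the exact permutation test gave p = 0.1, two-sided, again the lowest value within reach. The log2 ratios were -0.55, -0.83 and -0.28, and without pair 2, which holds the largest of them, the block fit gave -0.41 and no call (edgeR, Benjamini-Hochberg adjusted p = 0.0762). Igfbp1, whose gene ends 3539 bp from Igfbp3, had 2 to 17 counts per library and was not tested.

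The other 4 binding proteins did not pass in either fit. Igfbp2, an abundant IGF binding protein of developing brain (ENSMUSG00000039323.18, chromosome 1, 72824503 to 72852474, plus strand), had 434.2, 330.5 and 503.2 CPM with DMSO and 552.3, 368.7 and 467.5 CPM with GSK-126. The pairs disagreed in direction, since replicate 3 was lower with GSK-126. The log2 fold change was 0.13 with a standard error of 0.21 (edgeR, Benjamini-Hochberg adjusted p = 0.961), and the block fit gave 0.13 as well (edgeR, Benjamini-Hochberg adjusted p = 0.358).

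Igfbp5 (ENSMUSG00000026185.8, chromosome 1, 72857932 to 72874884, minus strand), a binding protein that also attaches to extracellular matrix, faces Igfbp2 tail to tail with 5457 bp between the gene ends. It had 260.2, 355.6 and 192.8 CPM with DMSO and 230.7, 310.3 and 171.4 CPM with GSK-126. The GSK-126 library was the lower of each pair by nearly the same amount, with log2 ratios of -0.17, -0.20 and -0.17. The groups nonetheless overlapped across most of their range, and the log2 fold change was -0.18 with a standard error of 0.28 (edgeR, Benjamini-Hochberg adjusted p = 0.961). The block gave -0.18 (standard error 0.07, edgeR, Benjamini-Hochberg adjusted p = 0.132).

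Igfbp4 (ENSMUSG00000017493.12, chromosome 11, 99041244 to 99054392, plus strand), a binding protein known as an inhibitor of IGF action, had 209.7, 81.39 and 198.0 CPM with DMSO and 230.1, 95.96 and 204.2 CPM with GSK-126. It was the member in which replicate 2 stood furthest from replicates 1 and 3, in both groups alike, with a 2.48-fold range of replicate means. Against that range the pairs differed little, with log2 ratios of 0.13, 0.24 and 0.04 and a block log2 fold change of 0.14 (standard error 0.08, edgeR, Benjamini-Hochberg adjusted p = 0.319). Igfbp6 (ENSMUSG00000023046.6, chromosome 15, 102144362 to 102149511, plus strand), which prefers IGF2 over IGF1, had 14.65, 11.37 and 13.99 CPM with DMSO and 12.43, 6.893 and 14.56 CPM with GSK-126. It had the fewest reads of the 8, 64 to 164 counts per library. Its block log2 fold change of -0.28 had a 95% interval of -0.67 to 0.11 (edgeR, Benjamini-Hochberg adjusted p = 0.412). The exact permutation test was at 0.6 to 0.8, two-sided, for the 6 members other than Igfbp3 and Igfbp7.

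**Figure D2:**
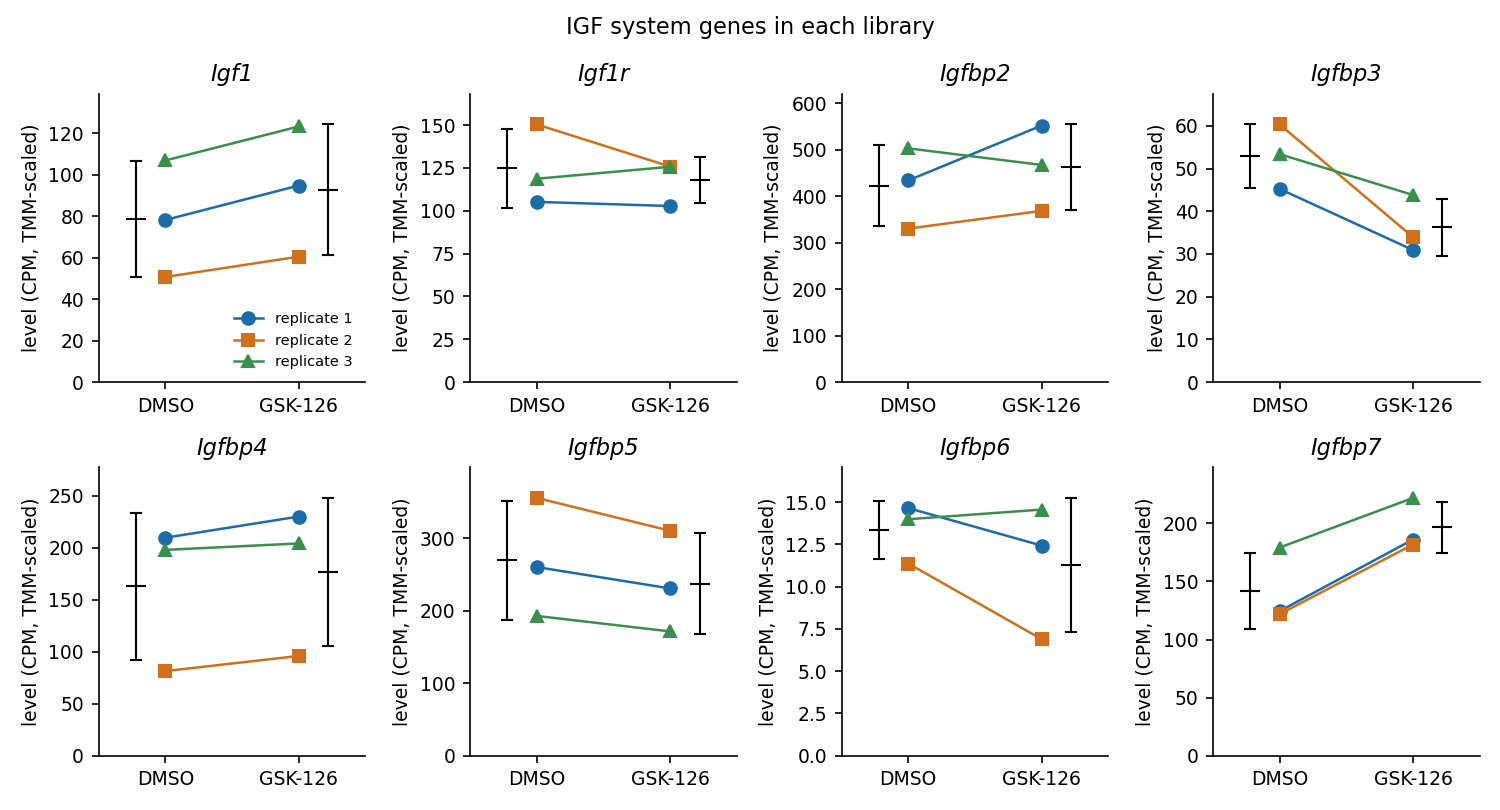
Level of each IGF system gene (CPM, TMM-scaled, axis from 0) in each library, with lines joining the DMSO and GSK-126 libraries of the same replicate number and black marks for the mean ± SD of 3. Igfbp7 is higher and Igfbp3 lower in all 3 pairs without overlap of the groups, whereas the lines of Igf1, Igfbp4 and Igfbp5 run nearly parallel and far apart.

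Counted over the members, 0 of 8 passed the edgeR test without a block, where 0% of all genes tested passed, and DESeq2 without a block called 0 of 8 as well (0.126% of all genes). At an unadjusted p under 0.05 the edgeR test marked 2 of 8, Igfbp3 and Igfbp7, against 3.98% of all genes. In the block fit 1 of 8 was higher (3.35% of all genes) and 1 of 8 was lower (5.09% of all genes), and DESeq2 with the block called 1 in each direction too (2.87% of all genes were higher, 4.81% lower). At an unadjusted p under 0.05 the block fit marked 4 of 8, against 21.5% of all genes. Groups that did not overlap were found for 2 of 8, against 9.44% of all genes, and the 3 pairs shared a direction for 5 of 8, against 42.3% of all genes. The median log2 fold change of the 8 was 0.019, beside -0.007 over all genes tested, so the members did not lean to one side. The members were chosen with earlier results of these data known, so these counts describe the list and are no test of it.

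**Figure D3:**
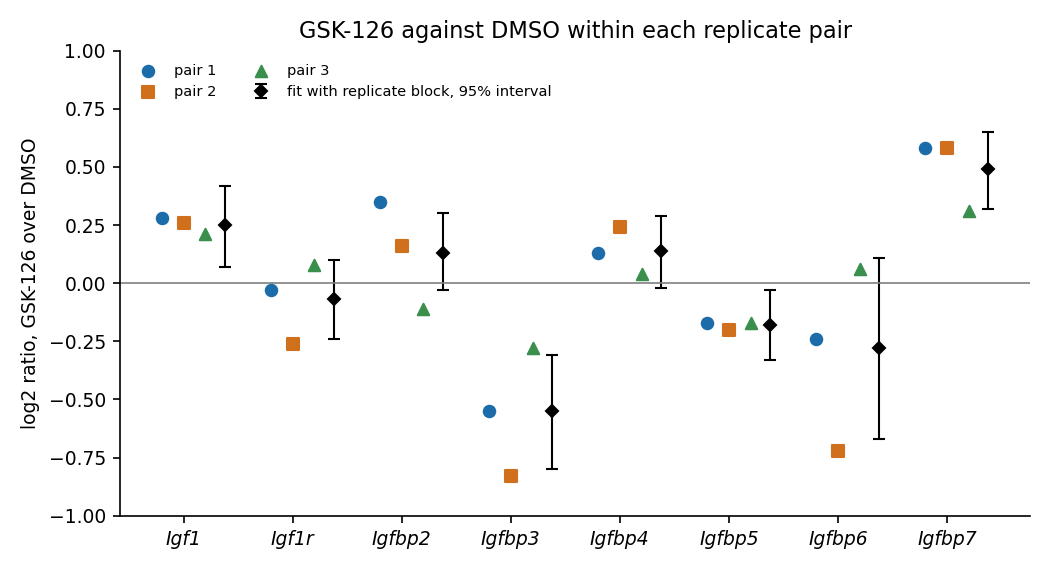
Log2 ratio of GSK-126 over DMSO in each replicate pair (colored points) and the log2 fold change of the fit with the replicate block with its 95% interval (black diamonds) for the 8 genes. The intervals of Igf1, Igfbp3, Igfbp5 and Igfbp7 do not include 0, before adjustment over all genes, and only those of Igfbp3 and Igfbp7 passed the adjusted threshold.

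Replicate number accounted for more of the spread than drug in 6 of the 8 genes. The medians over all genes tested had the same order, at 60.8% for replicate number and 13.4% for drug. The sum of squares of log2 CPM over the 6 libraries was split between replicate number, drug and the remainder. Replicate number has 3 levels and drug 2, so replicate number has more room to take spread. The share of all genes with that order was not counted. Replicate number took 98.2% in Igfbp4, 93.9% in Igfbp5 and 92.4% in Igf1, compared with a median of 60.8% over all genes tested. Drug took 67.4% in Igfbp3 and 59.4% in Igfbp7, against a median of 13.4%. The members also followed the replicates in opposite directions. Across the 6 libraries, which share 3 replicate numbers and so give no p, Pearson's r was 0.93 between Igfbp2 and Igfbp4, 0.87 between Igf1 and Igfbp4, and -0.99 between Igf1 and Igfbp5. The neighbors Igfbp2 and Igfbp5 had r = -0.81. Igf1, Igfbp2 and Igfbp4 were at their lowest in replicate 2, where Igfbp5 was at its highest.

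The same replicate had the fewest reads from astroglia, microglia, oligodendrocyte lineage and cycling markers and the most from granule neuron markers. The summed level of 8 astroglia markers was 2178 and 2115 CPM in replicate 2 with DMSO and GSK-126, and 3874 to 7366 CPM in the other libraries. The 8 microglia markers summed to 399 and 555.4 CPM in replicate 2 and to 666 CPM or more elsewhere, and the 10 granule neuron markers to 6256 and 4780 CPM in replicate 2 against 2953 to 4313 CPM elsewhere. Oligodendrocyte lineage markers summed to 414.7 and 490.6 CPM in replicate 2 and to 608.4 CPM or more elsewhere. Cycling markers summed to 311.1 and 313.8 CPM in replicate 2 and to 358.6 CPM or more elsewhere. The fibroblast, mural, endothelial, and GABAergic and Purkinje lists were not lowest in replicate 2 in both groups. Fibroblast markers summed to 9045, 9672 and 12870 CPM with DMSO in replicates 1 to 3, and to 11240, 10140 and 14300 CPM with GSK-126. In bulk RNA, fewer cells of a type and less RNA per cell cannot be told apart, and the part of cell composition in the levels of these genes was not tested.

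**Figure D4:**
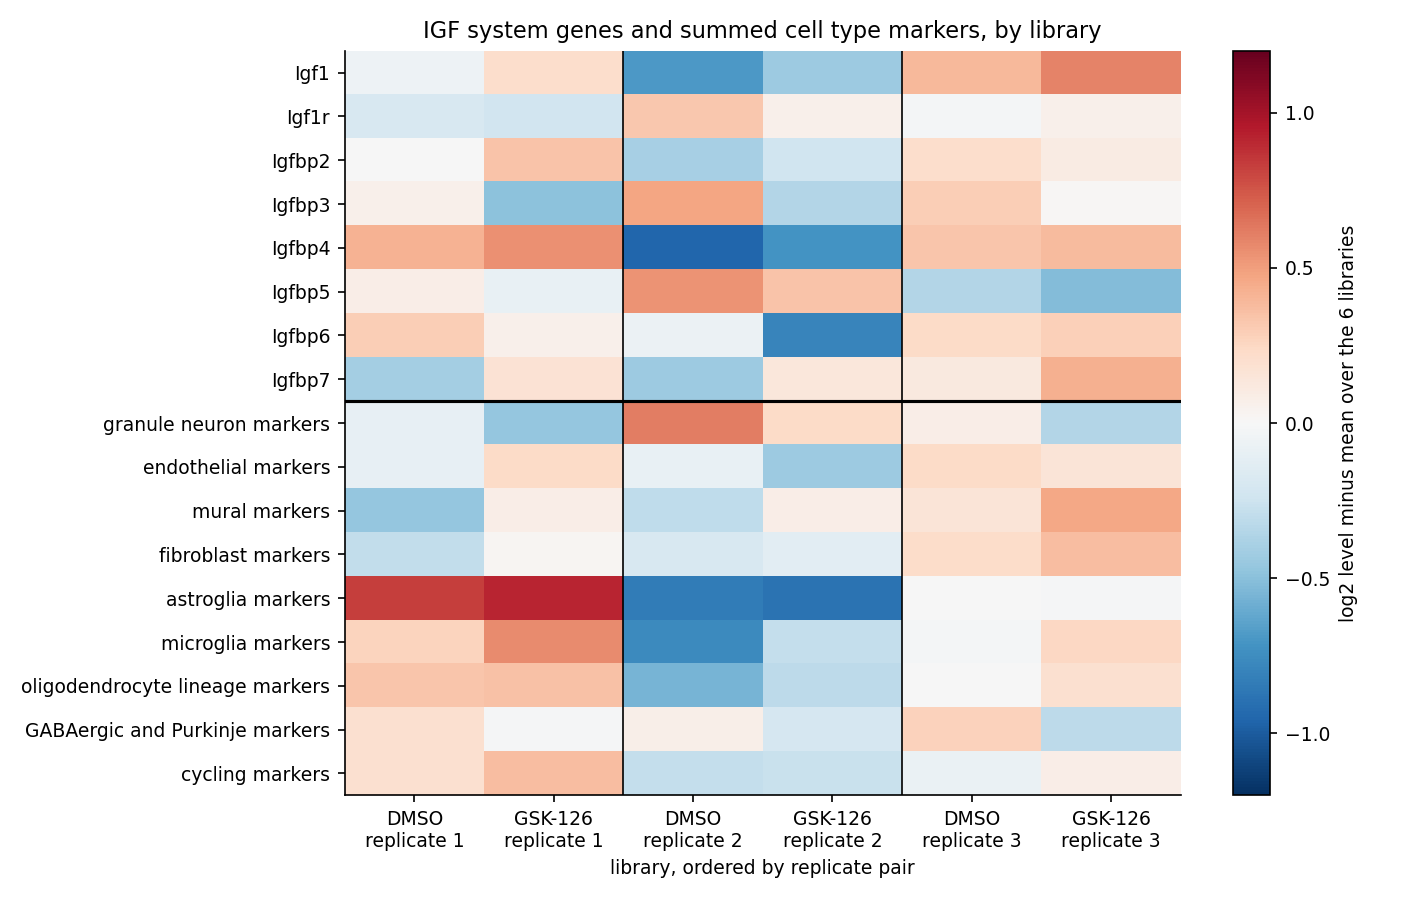
Log2 level of each IGF system gene and of summed cell type markers minus its mean over the 6 libraries, with libraries ordered by replicate pair. In replicate 2, Igf1 and Igfbp4 are low and Igfbp5 is high with both DMSO and GSK-126, as astroglia and microglia markers are low and granule neuron markers high.

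Markers also moved with the drug, beside the differences of Igfbp3 and Igfbp7. Of the 10 granule neuron markers, 8 fell in the block fit (edgeR, background 5.09% of all genes), and their summed level with GSK-126 was 0.774, 0.764 and 0.74 times that of the DMSO partner, with ranges of 3814 to 6256 CPM and 2953 to 4780 CPM. Of the 8 mural cell markers, 7 were tested and 3 rose in the block fit (edgeR, background 3.35% of all genes higher, also for the lists that follow). Without the block, 5 of the 7 had a positive log2 fold change, and the lowest was -0.55. The sum of the 8 mural markers went from 729.9 to 1120 CPM in DMSO libraries to 1064 to 1393 CPM with GSK-126, or 1.46, 1.3 and 1.24 times within pairs. The microglia markers, of which 4 of 8 rose, summed to 399 to 816.6 CPM with DMSO and 555.4 to 1004 CPM with GSK-126. The fibroblast list had 2 of 8 markers higher and 1 lower, at 9045 to 12870 CPM and 10140 to 14300 CPM. The GABAergic and Purkinje cell list had 3 of 8 markers lower in the block fit, against 5.09% of all genes. Without the block, 3 of its 8 markers had a positive log2 fold change, up to 0.51. Its sums of 210.6 to 243.6 CPM with DMSO and 161.9 to 198.7 CPM with GSK-126 did not overlap. Taken singly, 4 of its 8 markers had groups that did not overlap, against 9.44% of all genes. Of the 8 astroglia markers 2 rose, with sums of 2178 to 6941 CPM and 2115 to 7366 CPM. In the block fit 1 marker rose in the oligodendrocyte lineage list (414.7 to 764.8 CPM and 490.6 to 775.9 CPM) and 1 in the cycling list (311.1 to 432.6 CPM and 313.8 to 488.6 CPM). None of the 6 endothelial markers tested was called in the edgeR block fit, where 1 had an unadjusted p under 0.05, and their list summed to 59.0 to 93.3 CPM with GSK-126. No marker was at 0 in every library. The marker lists were chosen with earlier results of these data known, so their counts are a description only. The part of these cell types in the levels of Igfbp3 and Igfbp7 was not tested.

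By likeness of pattern, the 2 genes with the highest Pearson's r to each member over the 6 libraries were taken from the 13709 other genes with a mean log2 CPM over 2. For Igfbp7 they were Gm48529 (r = 0.997) and Tcof1 (r = 0.9961), and for Igfbp3 they were Zfp35 (r = 0.995) and Ralgapb (r = 0.9902). For Igf1 they were Mast4 (r = 0.9996) and Gsn (r = 0.9986), and for Igf1r they were Lpgat1 (r = 0.998) and Hectd2 (r = 0.9946). Igfbp2 was most like H2-T22 (r = 0.9951) and Lhpp (r = 0.9935), Igfbp4 most like Rrm2 (r = 0.9983) and Pdlim2 (r = 0.9981), Igfbp5 most like BC031181 (r = 0.9938) and Leng8 (r = 0.9905), and Igfbp6 most like Napepld (r = 0.9987) and Bet1l (r = 0.9818). No member was among the genes most like another. With so few libraries and so many genes, values this near 1 are a description only.

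The wider IGF pathway was read from a list of 41 further genes, of which 35 were tested. In edgeR without a block 0 of 35 were called and 2 had an unadjusted p under 0.05, and DESeq2 without a block called 0. In the block fit 3 rose, Igfbpl1, Pappa and Stc2, 1 fell, Foxo3, and 31 were not called, against 3.35% of all genes higher and 5.09% lower. The median log2 fold change of the 35 was 0.037, against -0.007 over all genes, and 4 of the 35 had groups that did not overlap, against 9.44% of all genes. The pathway list was also chosen with earlier results of these data known, so its counts are a description only.

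Igfbpl1, a secreted relative of the binding proteins, had 13.84, 15.01 and 12.52 CPM with DMSO and 20.24, 18.2 and 21.5 CPM with GSK-126. The groups were separate, and the block log2 fold change was 0.53 with a standard error of 0.16 (edgeR, Benjamini-Hochberg adjusted p = 0.0386). It was not called by DESeq2 with the block (Benjamini-Hochberg adjusted p = 0.13), nor by the edgeR block fit without pair 1 (0.109) or without pair 3 (0.233).

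Pappa encodes a metalloprotease that cuts IGFBP4 and IGFBP5 and frees bound IGF. Pappa had 4.268, 11 and 12.86 CPM with DMSO and 9.247, 13.25 and 26.71 CPM with GSK-126, with overlapping groups but the same direction in each pair. Its block log2 fold change was 0.79 with a standard error of 0.19 (edgeR, Benjamini-Hochberg adjusted p = 0.0126), and it was lost without pair 3 (edgeR, Benjamini-Hochberg adjusted p = 0.142). Stc2, a secreted inhibitor of that protease, had 8.19, 7.272 and 6.692 CPM with DMSO and 15.99, 14.86 and 9.083 CPM with GSK-126. The 3 DMSO libraries lay close together and under all GSK-126 libraries, of which replicate 3 was the nearest to them. Its block log2 fold change was 0.83 with a standard error of 0.20 (edgeR, Benjamini-Hochberg adjusted p = 0.00995), and the call was lost without pair 1 (edgeR, adjusted p = 0.0588) and without pair 2 (edgeR, adjusted p = 0.0903). Thus the RNA of a protease and that of its inhibitor were both higher in the block fit, and the RNA of Igfbp4 and Igfbp5 did not pass. The protease cuts IGFBP4 and IGFBP5 as proteins, and protein and cleavage were not measured.

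Foxo3, a transcription factor that AKT holds out of the nucleus, had 274.2, 305.8 and 293.9 CPM with DMSO and 250.2, 243.9 and 245.8 CPM with GSK-126. Its groups were separate and tight, yet the block log2 fold change of -0.24 (standard error 0.07, edgeR, Benjamini-Hochberg adjusted p = 0.0446) was the weakest of the 4 calls. Foxo3 was not called by DESeq2 with the block (Benjamini-Hochberg adjusted p = 0.0577), with any pair left out (edgeR, adjusted p = 0.0904 to 0.167), or under the 2 other scalings (edgeR, adjusted p = 0.0799 and 0.0832).

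Of the other ligands and receptors, Igf2, the second IGF ligand, averaged 15.1 ± 6.31 CPM (SD, n = 3) in DMSO libraries against 18.8 ± 9.28 CPM (SD, n = 3) in GSK-126 libraries. It missed the threshold in the block fit (edgeR, Benjamini-Hochberg adjusted p = 0.307), and 3596 bp of its exons are shared with Gm49394 on the same strand, which makes its count uncertain. Insr, the insulin receptor, was at 92.2 ± 21.8 and 82.6 ± 7.95 CPM (SD, n = 3 each; block, edgeR, Benjamini-Hochberg adjusted p = 0.467). Igf2r, which takes IGF2 up for breakdown, was at 191.3 ± 34.6 and 211.4 ± 54.0 CPM (SD, n = 3 each; block, edgeR, Benjamini-Hochberg adjusted p = 0.376). The ligand Ins2, the receptor Insrr, the binding protein genes Igfbp1 and Igfals and the protease Pappa2 had too few counts to be tested. The kinase subunit Pik3r2, with 0 or 1 counts per library, was not tested either, and whether the counting missed its reads is not known. None of the 7 adaptors between receptor and kinases passed in the edgeR block fit, where 2 had an unadjusted p under 0.05, against 21.5% of all genes.

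**Figure D5:**
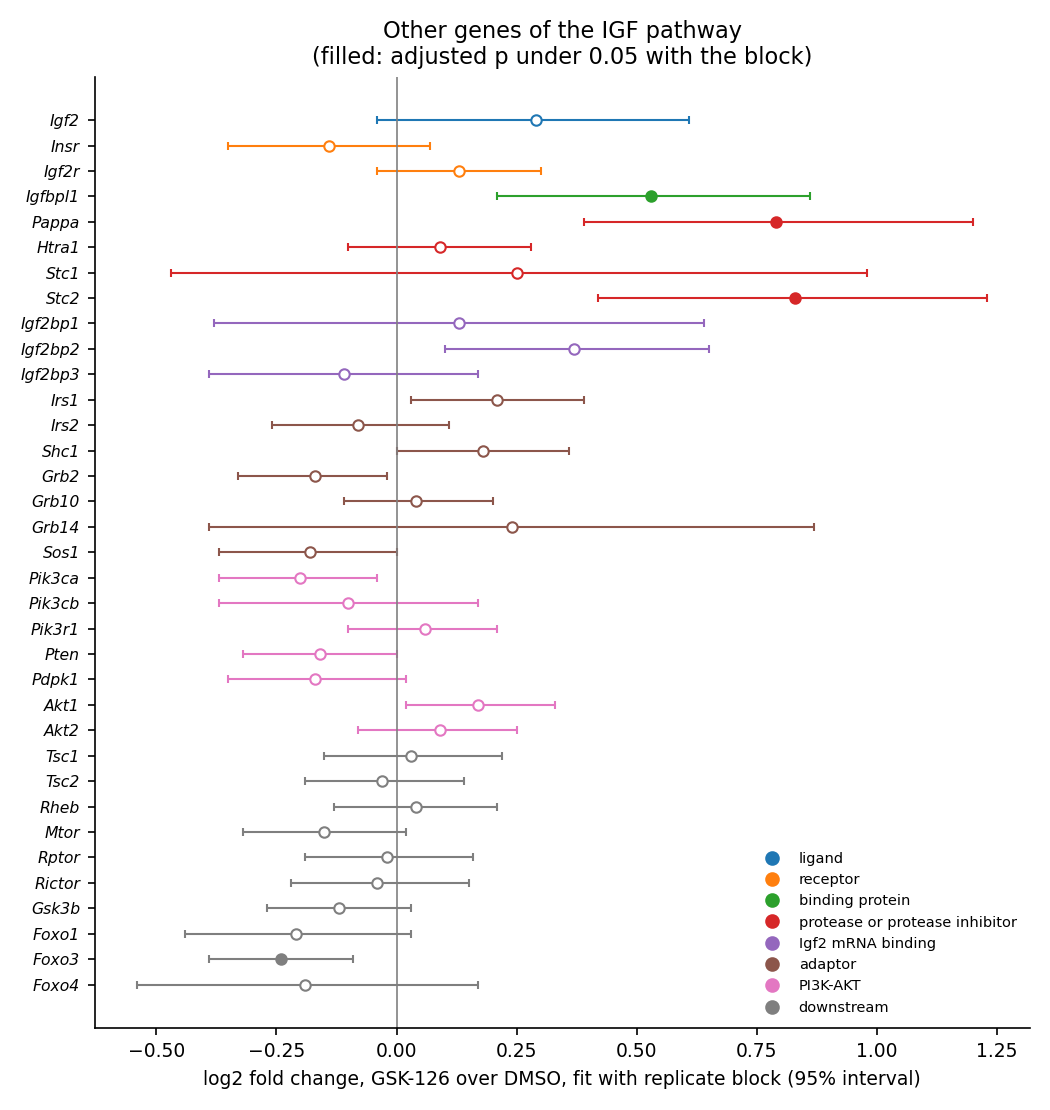
Log2 fold change of GSK-126 over DMSO with its 95% interval in the fit with the replicate block for the 35 further IGF pathway genes tested, colored by role. The filled points are the 4 genes with an adjusted p under 0.05, of which Igfbpl1, Pappa and Stc2 lie above 0 and Foxo3 below it.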

How the data were processed

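RNA from 3 DMSO and 3 GSK-126 CGN cultures was sequenced after poly(A) enrichment. The authors trimmed reads with Trimmomatic 0.38, aligned them to mm10 with STAR 2.7.2b per the labels, and deposited raw counts per gene that HTSeq had made on exons of a Gencode GTF for GRCm38.p4. The strand setting and the Gencode release number are not given in the sources used here. All 55341 symbols matched GENCODE M21, which gave identifiers, GRCm38 coordinates and exon lengths.

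Lines that name no gene were left out (58.7% to 60.7% of reads). Counts were filtered with filterByExpr, scaled by TMM and tested with the edgeR 4.0.16 quasi-likelihood test in R 4.3.3, with Benjamini-Hochberg adjustment over 16729 genes and calls at an adjusted p under 0.05, without a block. A block on replicate number was the first alternative. Deviations from group means correlated across genes at 0.561, 0.634 and 0.487 between libraries of the same number and at 0.00638 or less otherwise, so the numbers pair the libraries. The labels do not say what the numbers share. The biological coefficient of variation was 24% without the block and 9.74% with it. DESeq2 1.42.0, other scalings and filters, and each library or pair left out were the other alternatives. Log2 CPM used a prior count of 2. Groups came from titles. Without the block, p-values set the drug difference against the spread between these cultures. With the block, they set it against the spread left after differences between replicate numbers are removed.

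The members, the pathway and marker lists were chosen with earlier results of these data known. All members were named. From the pathway list, ligands, receptors, binding proteins and genes called in either fit were named, and the result of 1 gene of that list is not reported here. For likeness, the 2 genes with the highest r per member were named.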

Additional observations from a re-analysis of the deposited data

How the results depend on the processing

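Without the block, 0 genes were called by edgeR, also with upper-quartile scaling, total counts or at least 10 counts in every library. DESeq2 called 20 higher and 1 lower, and leaving out the filter gave 9 and 1, none of them among the IGF genes. With the replicate block 561 genes were called higher and 851 lower, with DESeq2 and the block 369 and 618, and without pair 1, 2 or 3 the block gave 417, 337 or 558 higher and 671, 496 or 719 lower. The block with upper-quartile scaling gave 727 and 698, and with total counts 714 and 707, both chosen after seeing the data. The higher share of calls was thus 39.7% with TMM, 51% and 50.2%.

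Of the 8 members, the block gave 1 higher and 1 lower, as did DESeq2 with the block. A pair left out gave 1 higher and 0 to 1 lower, and the other 2 scalings gave 2 higher, with Igf1 added, and 1 lower. Of the pathway genes the block gave 3 higher and 1 lower, DESeq2 with the block 2 and 0, a pair left out 1 to 2 and 0, and each of the other scalings 3 and 0.

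With 1 library left out, the log2 fold change ran from -0.71 to -0.43 for Igfbp3 (-0.69 to -0.41 in the block fit with a pair left out), from 0.37 to 0.68 for Igfbp7, and from -0.02 to 0.53 for Igf1. It ran from -0.17 to 0.08 for Igf1r, -0.02 to 0.29 for Igfbp2, -0.20 to 0.43 for Igfbp4, -0.40 to 0.07 for Igfbp5 and -0.46 to 0.03 for Igfbp6, and from -0.28 to 0.04 for Insr, or 0.05 in the block fit without pair 2, and -0.08 to 0.29 for Igf2r, each of which changed sign at least once. In the block fit without pair 2, Igf1r was at 0.03. No alternative other than leaving out libraries or pairs changed the direction of any named gene. The cause of these shifts was not tested. The order of levels depends on exon length, since in CPM Igfbp3 ranked 7 of 8 and Igfbp7 4 of 8. Counts of 64 to 164 per library for Igfbp6 were the lowest among the members.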
